A study of Homo sapiens with 19 samples.

Results

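The comparison described here sets HepG2 cells that received siINO80#1, a small interfering RNA (siRNA) against the INO80 ATPase, beside HepG2 cells that received the control siRNA, called NTG in the sample titles. Its members were chosen by their labels alone: the 3 siINO80#1 libraries and the 3 NTG libraries of 1 deposited table, which makes 6 of the 19 libraries in the series. HepG2 is an established liver cancer line that still makes many hepatocyte proteins. Cells of both groups were transfected with 50 nM siRNA and RNAiMAX reagent and collected after 72 hours, and stranded mRNA libraries were made from total RNA. The 3 libraries of siINO80#2, a different siRNA against the same gene, come from the same table and are used here only to ask where the response to siINO80#1 differed from theirs. Each knockdown is of 1 cell line at 1 time point, and no label ties a library to a separate culture, so the p-values below measure the spread between these libraries, which may be technical.

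INO80 is the catalytic and scaffold subunit of a chromatin remodelling complex that slides nucleosomes, exchanges histone variants and takes part in transcription, replication and DNA repair. In hepatocytes a network of transcription factors, among them HNF4A and the bile acid receptor NR1H4, keeps the genes of secreted proteins, detoxification and intermediary metabolism active. Growth factor signals pass through receptor tyrosine kinases and the ERK kinases to immediate early transcription factors such as EGR1 and FOS, and from there to genes of cell migration and feedback control.

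The 6 libraries held between 17093574 and 23229356 reads assigned to genes, and 3 reads, used here as the limit of detection, corresponded to 2.62 to 3.58 normalized counts, the unit of the table. Hepatocyte markers were abundant in both groups, with 10 of 10 measured and a summed level of 742239 to 921163 normalized counts with NTG and 850672 to 1053240.0 with siINO80#1. Of the markers of other cells, 4 of 8 immune genes passed the filter on low values and summed to 37019 to 41000.5 normalized counts with NTG and 39264 to 45326 with siINO80#1, nearly all of it lysozyme (LYZ, 35876 to 44177 normalized counts over the 6 libraries), while the leukocyte gene PTPRC lay between 15.7 and 31.7 normalized counts and CD3E was at 0 in every library. The 8 stellate cell and fibroblast genes summed to 870.5 to 1486 normalized counts with NTG and 694 to 825 with siINO80#1, the 7 endothelial genes to 231 to 271 normalized counts with NTG and 271 to 316 with siINO80#1 and the 6 cholangiocyte genes to 21751 to 26138 normalized counts with NTG and 23705 to 25528 with siINO80#1. The part of these levels in the results was not tested, and fewer cells with an mRNA cannot be told apart from less mRNA per cell in such bulk libraries. Library C of siINO80#2 stood apart, with 26.3% of its normalized counts in 20 genes against 15.5% to 18.3% in the 6 libraries compared, and because it shares in the estimate of the spread, the list counts that moved most without it are given both ways.

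INO80 mRNA fell with siINO80#1 in every library. The gene lies on chromosome 15 (GRCh38.p14, 40978880 to 41116280), and it stood at 1278, 1338 and 1175 normalized counts with NTG and 576, 639 and 609 with siINO80#1, a mean of 1264 ± 82.2 (SD, n = 3) against 608 ± 31.3 (SD, n = 3). The groups did not overlap, 48.1% of the NTG level was left, and the difference was called (log2 fold change -1.05 ± 0.08, adjusted p = 5.1e-06). Here and below, ± beside a log2 fold change is its standard error, the fold change is on the log2(normalized count + 1) scale, libraries are listed as A, B and C, and the adjusted p is limma's after Benjamini-Hochberg correction over the 14034 genes tested. A gene is said to be called, or to have risen or fallen, when that value was under 0.05. With siINO80#2 the ATPase mRNA was lower still at 439.8, 456 and 483 normalized counts, and the direct comparison of the siRNAs was called (log2 difference between the siRNAs -0.40 ± 0.08, adjusted p = 0.0058).

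The rest of the INO80 complex moved little and in no single direction. Of its 16 listed subunit genes, all of which were tested, 3 rose and 3 fell, INO80 itself included, with a median log2 fold change of 0.07, or -0.01 when libraries were scaled to equal totals. Without siINO80#2 C 5 rose and 3 fell. Called over all genes tested, the background was 41.6% in either direction, 20.7% higher and 20.8% lower, with a median of 0.00. RUVBL1 and RUVBL2, helicase-like ATPases that form a ring in the complex, went opposite ways. RUVBL2 rose, at 683, 656 and 565 normalized counts with NTG and 891, 903 and 964 with siINO80#1 (log2 fold change 0.54 ± 0.09, adjusted p = 0.00098). RUVBL1 stood at 1008, 943 and 824 normalized counts with NTG and 827, 721 and 687 with siINO80#1 (log2 fold change -0.31 ± 0.11, adjusted p = 0.035). The RUVBL1 call was lost without NTG A, NTG B, siINO80#1 B or siINO80#1 C (limma adjusted p = 0.094 to 0.13). NFRKB, a subunit of the module with the deubiquitinase UCHL5, rose from 531, 488 and 455 normalized counts with NTG to 708, 666 and 757 with siINO80#1 (log2 fold change 0.53 ± 0.09, adjusted p = 0.00081), and the groups did not overlap for it. UCHL5 itself was lower (log2 fold change -0.26 ± 0.09, adjusted p = 0.041) and ACTB, the actin shared with other remodellers and with the cytoskeleton, was higher (log2 fold change 0.32 ± 0.10, adjusted p = 0.03). The UCHL5 call was lost without NTG A, NTG B, siINO80#1 B or siINO80#1 C (limma adjusted p = 0.088 to 0.16). The ACTB call was lost without NTG A, NTG C, siINO80#1 A, siINO80#1 B or siINO80#1 C (limma adjusted p = 0.052 to 0.11). With 1 library left out, the number of called subunits fell to 3 without NTG A, siINO80#1 B or siINO80#1 C. YY1, the DNA-binding subunit, was not called (log2 fold change 0.16 ± 0.06, adjusted p = 0.068), and neither was MCRS1 (log2 fold change -0.07 ± 0.12, adjusted p = 0.69).

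Beyond the complex, the response was broad: 2912 genes rose and 2921 fell, or 3357 and 3550 without siINO80#2 C. With libraries scaled to equal totals, 2165 rose and 3276 fell, so that the share higher among called genes was 39.8% in place of 49.9%. In the main comparison, 539 of the genes that rose and 515 of those that fell changed by 1 or more in log2 terms. Between the groups, 57.2% of all genes tested had no overlap. For each list some genes, its anchors, are named whatever their values. Other called list members named below had to show no overlap, apart from INO80 subunits and genes added after their values were seen. Their lack of overlap was thus fixed by the choice and is no further result. Among called genes that averaged 50 or more normalized counts in the 6 libraries and did not overlap between groups, UNC93A, a membrane protein of little known function, fell the most, from 1151, 812 and 1093 normalized counts with NTG to 26.2, 22.8 and 21.0 with siINO80#1 (log2 fold change -5.38 ± 0.40, adjusted p = 5e-06), and it was followed by GSTA2, PCK1, BHMT and C6, each described with its list. Under the same conditions VGF, a secreted neuropeptide precursor, rose the most and was followed by the neurotrophin receptor NGFR. Below that average some genes had larger fitted changes, and OTC and EGR3 among them are described with their lists. SPINK1, a secreted trypsin inhibitor, stood at 12.3, 28.7 and 25.9 normalized counts with NTG and 130.0, 134 and 192 with siINO80#1 (log2 fold change 2.77 ± 0.30, adjusted p = 4.6e-05). AQP3, a water and glycerol channel, stood at 358, 515 and 359 normalized counts with NTG and 1864, 2634 and 2590.3 with siINO80#1 (log2 fold change 2.53 ± 0.17, adjusted p = 2.8e-06). The transcript AC005338.1, named only by its clone, stood at 70.3, 156 and 113 normalized counts with NTG and 1069, 442 and 530.0 with siINO80#1 (log2 fold change 2.54 ± 0.42, adjusted p = 0.00075), and library A was the highest of its group.

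**Figure D1:**
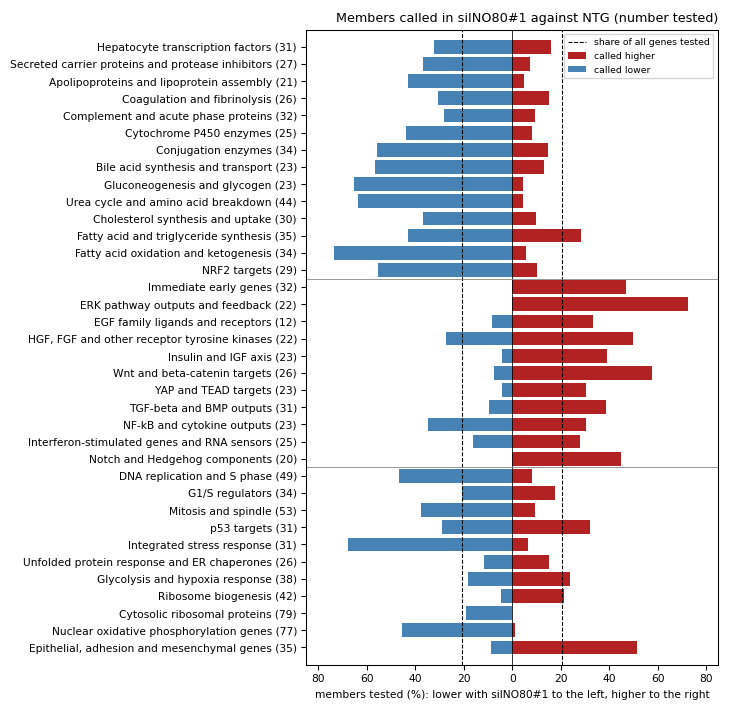
Share of the tested members of each gene list that was called lower (left) or higher (right) with siINO80#1 against NTG, in percent, with the number tested in parentheses; dashed lines mark 20.8% lower and 20.7% higher, the shares over all genes tested. Liver lists lie mostly to the left, signalling lists to the right, and growth lists on either side.

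Genes of the differentiated hepatocyte were called lower more often than higher. All gene lists here and below were drawn up with earlier results of these data known, so their shares are a description. The 14 liver lists hold 471 genes, of which 407 were tested; 194 of them (47.7%) fell and 45 (11.1%) rose, beside 20.8% and 20.7% of all genes, and their median log2 fold change was -0.38. Among 31 hepatocyte transcription factors 10 fell and 5 rose, with a median of -0.23, or -0.12 without siINO80#1 A and -0.15 without NTG B or NTG C. HNF4A, a nuclear receptor at the centre of the hepatocyte network, fell from 5737, 5299 and 5822 normalized counts with NTG to 4326, 3745 and 4329 with siINO80#1 (log2 fold change -0.45 ± 0.07, adjusted p = 0.00082). NR1H4, the bile acid receptor FXR, fell much further, from 1561, 1351 and 1731 normalized counts with NTG to 482, 320.2 and 422 with siINO80#1 (log2 fold change -1.93 ± 0.16, adjusted p = 8.9e-06). KLF15, a regulator of fasting metabolism, fell from 132, 157 and 180.5 normalized counts with NTG to 44.1, 55.5 and 54.2 with siINO80#1 (log2 fold change -1.59 ± 0.26, adjusted p = 0.00071). For HNF4A, an anchor, the siINO80#1 libraries lay below every NTG library, whereas NR1H4 and KLF15 were named on that condition. CEBPA, another defining factor, varied widely and overlapped between the groups, at 1324, 1942 and 1893 normalized counts with NTG and 1127, 1644 and 1634 with siINO80#1 (log2 fold change -0.23 ± 0.30, adjusted p = 0.58). PROX1, a homeobox factor of the embryonic and adult liver, rose (log2 fold change 0.65 ± 0.12, adjusted p = 0.0016), as did the orphan receptor NR2F1 (log2 fold change 0.83 ± 0.18, adjusted p = 0.0039).

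The secreted proteins for which HepG2 is best known were not lost. ALB, serum albumin, stood at 169311, 140842 and 198183 normalized counts with NTG and 219623, 172414 and 229644 with siINO80#1 (log2 fold change 0.29 ± 0.17, adjusted p = 0.2). APOB, the scaffold of very low density lipoprotein, stood at 285051, 353748 and 374492 normalized counts with NTG and 485977, 428116 and 492673 with siINO80#1 (log2 fold change 0.48 ± 0.23, adjusted p = 0.12). Neither was called, nor were transthyretin (TTR, log2 fold change -0.34 ± 0.14, adjusted p = 0.077), apolipoprotein A1 (APOA1, log2 fold change -0.09 ± 0.19, adjusted p = 0.73) or complement C3 (log2 fold change -0.03 ± 0.15, adjusted p = 0.9). Of the 10 hepatocyte markers only HNF4A was called by limma. Other secreted proteins were more often lower than higher. Of 27 carrier proteins and protease inhibitors 10 fell and 2 rose (median -0.26), and the median was -0.06 without NTG C, -0.13 without siINO80#1 B and -0.39 without NTG B. Of 21 apolipoproteins and lipoprotein assembly genes 9 fell and 1 rose (median -0.34, or -0.20 without siINO80#1 B). SERPINA6, the corticosteroid carrier of plasma, fell from 4586, 4599.8 and 6443 normalized counts with NTG to 1149, 947 and 1162 with siINO80#1 (log2 fold change -2.25 ± 0.15, adjusted p = 2.4e-06). LEAP2, a liver-secreted peptide that antagonizes the ghrelin receptor, fell from 282, 145 and 319 normalized counts with NTG to 33.4, 27.8 and 26.2 with siINO80#1 (log2 fold change -2.98 ± 0.28, adjusted p = 2e-05). APOC3, an inhibitor of triglyceride clearance, fell from 1287, 922 and 1802 normalized counts with NTG to 304, 236 and 355 with siINO80#1 (log2 fold change -2.13 ± 0.27, adjusted p = 0.00014). In these 3 genes no siINO80#1 library came near the NTG range. SERPINA3, an acute phase antichymotrypsin, went the other way and rose from 3698, 2221 and 3681 normalized counts with NTG to 8662, 5861 and 9543 with siINO80#1 (log2 fold change 1.33 ± 0.22, adjusted p = 0.00084). APOA2 was also higher (log2 fold change 0.29 ± 0.08, adjusted p = 0.018). The APOA2 call was lost without NTG A, NTG B, siINO80#1 A or siINO80#1 C (limma adjusted p = 0.054 to 0.071).

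Coagulation and complement genes split. Of 26 coagulation and fibrinolysis genes 8 fell and 4 rose (median -0.13, or -0.07 without NTG C and -0.22 without NTG B), and of 32 complement and acute phase genes 9 fell and 3 rose (median -0.09). Antithrombin (SERPINC1), the main plasma inhibitor of thrombin, fell from 2565, 2849 and 3576 normalized counts with NTG to 931, 849 and 1005 with siINO80#1 (log2 fold change -1.68 ± 0.11, adjusted p = 2.8e-06). C6, a component of the membrane attack complex, fell from 115, 117 and 204 normalized counts with NTG to 16.7, 4.96 and 16.6 with siINO80#1 (log2 fold change -3.52 ± 0.43, adjusted p = 0.0001). Prothrombin (F2, log2 fold change -0.12 ± 0.10, adjusted p = 0.36) and the fibrinogen chain FGB (log2 fold change 0.23 ± 0.10, adjusted p = 0.098) were not called. On the other side, PLAUR, the urokinase receptor, rose from 83.6, 96.5 and 53.8 normalized counts with NTG to 242, 284 and 249 with siINO80#1 (log2 fold change 1.75 ± 0.20, adjusted p = 7.1e-05) and its ligand urokinase (PLAU) rose with it (log2 fold change 1.04 ± 0.12, adjusted p = 9.1e-05). These fibrinolysis genes are also part of cell migration. Complement C5 (log2 fold change 0.78 ± 0.12, adjusted p = 0.00038) and the complement inhibitor CD59 (log2 fold change 0.70 ± 0.11, adjusted p = 0.00048) rose as well.

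Detoxification and bile acid genes were called lower more often than higher. Of 25 cytochrome P450 genes 11 fell and 2 rose (median -0.36), with 7 lower without NTG C or siINO80#1 B. Of 34 conjugation enzymes 19 fell and 5 rose (median -0.47), and of 23 bile acid genes 13 fell and 3 rose (median -0.51). SULT2A1, which sulfates bile acids and steroids, fell from 4279, 4348 and 5585 normalized counts with NTG to 1475, 1283 and 1454 with siINO80#1 (log2 fold change -1.75 ± 0.13, adjusted p = 4.4e-06). GSTA2, an alpha class glutathione transferase, fell from 244, 286 and 385 normalized counts with NTG to 14.3, 19.8 and 8.75 with siINO80#1 (log2 fold change -4.37 ± 0.37, adjusted p = 9.6e-06). Its neighbour GSTA1 fell too (log2 fold change -2.76 ± 0.23, adjusted p = 8.3e-06). Reads of such similar genes can be split between them in ways the values do not show. AKR1D1, the reductase that shapes the bile acid ring system, fell from 1023, 876 and 1013 normalized counts with NTG to 162, 101 and 123 with siINO80#1 (log2 fold change -2.93 ± 0.20, adjusted p = 3.1e-06). Libraries of the groups were well apart for all of these. Among the P450 genes, CYP4F12 (log2 fold change -1.5 ± 0.16, adjusted p = 4.1e-05) and CYP4F3 (log2 fold change -1.16 ± 0.13, adjusted p = 6.2e-05), members of 1 similar family, fell, while CYP24A1, which breaks down vitamin D, rose from 708, 1017 and 773 normalized counts with NTG to 2177, 2634 and 2452 with siINO80#1 (log2 fold change 1.55 ± 0.13, adjusted p = 7.9e-06). CYP1A1, the classic target of the aryl hydrocarbon receptor, was lower (log2 fold change -0.37 ± 0.13, adjusted p = 0.037). The CYP1A1 call was lost without NTG B, NTG C, siINO80#1 A or siINO80#1 C (limma adjusted p = 0.087 to 0.15). The glucuronidation enzyme UGT2B7 was higher (log2 fold change 0.34 ± 0.10, adjusted p = 0.019). The UGT2B7 call was lost without NTG A, siINO80#1 A or siINO80#1 C (limma adjusted p = 0.059 to 0.073). Of 29 NRF2 targets, the antioxidant response genes, 16 fell and 3 rose (median -0.37), with NQO1, a quinone reductase, at 13481, 15587 and 14809 normalized counts with NTG and 10814, 10684 and 10066 with siINO80#1 (log2 fold change -0.47 ± 0.12, adjusted p = 0.011) and GCLC, which starts glutathione synthesis, on the higher side (log2 fold change 0.43 ± 0.06, adjusted p = 0.00036).

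Gluconeogenesis, amino acid breakdown and fatty acid oxidation were the liver lists with the largest share of members lower. In gluconeogenesis and glycogen metabolism 15 of 23 genes fell and 1 rose (median -0.52). PCK1, the committed enzyme of gluconeogenesis, fell from 600.0, 284 and 1013 normalized counts with NTG to 35.8, 21.8 and 60.3 with siINO80#1 (log2 fold change -3.91 ± 0.53, adjusted p = 0.00021). Although the NTG libraries differed among themselves, the highest siINO80#1 library was still below the lowest NTG library. G6PC, which releases free glucose, was also lower, at 176, 25.7 and 204 normalized counts with NTG and 16.7, 11.9 and 26.2 with siINO80#1 (log2 fold change -2.43 ± 0.64, adjusted p = 0.012), but NTG library B was as low as the siINO80#1 libraries. The G6PC call was lost without NTG A or NTG C (limma adjusted p = 0.051 to 0.054). GCKR, the inhibitory protein of glucokinase, fell from 337, 305 and 431 normalized counts with NTG to 134, 123 and 148 with siINO80#1 (log2 fold change -1.39 ± 0.19, adjusted p = 0.00019).

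Among 44 urea cycle and amino acid genes 28 fell and 2 rose (median -0.67), the lowest median of the lists. BHMT, which remethylates homocysteine with betaine, fell from 502, 391 and 632 normalized counts with NTG to 29.8, 39.7 and 47.2 with siINO80#1 (log2 fold change -3.67 ± 0.22, adjusted p = 1.4e-06). AGXT, which detoxifies glyoxylate, fell from 375, 298 and 587 normalized counts with NTG to 111, 87.2 and 134 with siINO80#1 (log2 fold change -1.88 ± 0.28, adjusted p = 0.0004). The first urea cycle enzyme, CPS1, went against its list and rose from 670.3, 660.1 and 553 normalized counts with NTG to 1025, 871 and 923 with siINO80#1 (log2 fold change 0.58 ± 0.09, adjusted p = 0.00066). ARG2, the mitochondrial arginase, did so too and rose from 690.4, 896 and 778 normalized counts with NTG to 2064, 2333 and 2225 with siINO80#1 (log2 fold change 1.49 ± 0.11, adjusted p = 3.4e-06). OTC, the next enzyme of the cycle after CPS1, was singled out after its values were seen: it stood at 61.3, 56.5 and 76.8 normalized counts with NTG, was at 0 in siINO80#1 libraries A and B, and had 1 read (0.875 normalized counts) in library C, under the limit of 3 reads.

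In fatty acid oxidation and ketogenesis 25 of 34 genes fell and 2 rose (median -0.61). CPT1A, the gate of mitochondrial fatty acid entry, fell from 1224, 1078 and 1566 normalized counts with NTG to 604, 563 and 800.2 with siINO80#1 (log2 fold change -0.97 ± 0.16, adjusted p = 0.00065). ACAD11, an acyl-CoA dehydrogenase, fell from 1739, 1488 and 1557 normalized counts with NTG to 438, 389 and 462 with siINO80#1 (log2 fold change -1.89 ± 0.12, adjusted p = 1.6e-06). BDH1, which interconverts ketone bodies, fell from 656, 670.3 and 853 normalized counts with NTG to 228, 220.1 and 235 with siINO80#1 (log2 fold change -1.66 ± 0.11, adjusted p = 2.6e-06). No siINO80#1 library reached an NTG library in these genes. Lipid synthesis was mixed, with 15 genes lower and 10 higher of 35 (median -0.20, or -0.13 without siINO80#1 A and -0.33 without siINO80#1 C). Of its anchors, FASN, fatty acid synthase, rose from 17939, 18224 and 17137 normalized counts with NTG to 26826, 24947 and 32294 with siINO80#1 (log2 fold change 0.65 ± 0.12, adjusted p = 0.0015) while the desaturase SCD fell (log2 fold change -0.63 ± 0.11, adjusted p = 0.0013). GPAM and DGAT1, the first and last enzymes of triglyceride assembly, fell (log2 fold change -1.49 ± 0.12, adjusted p = 7.2e-06 and log2 fold change -1.68 ± 0.17, adjusted p = 3e-05). Cholesterol synthesis and uptake had 11 lower and 3 higher of 30 (median -0.23, or -0.14 without siINO80#1 B). The count of this list depended on the library left out: 9 calls without NTG A, 8 without NTG C and 9 without siINO80#1 B, in place of 14. It was 11 without NTG B, siINO80#1 A or siINO80#1 C. Over all genes, leaving out 1 of the 6 libraries gave 4711 to 5060 calls, in place of 5833. Without siINO80#2 C 14 fell and 4 rose.

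**Figure D2:**
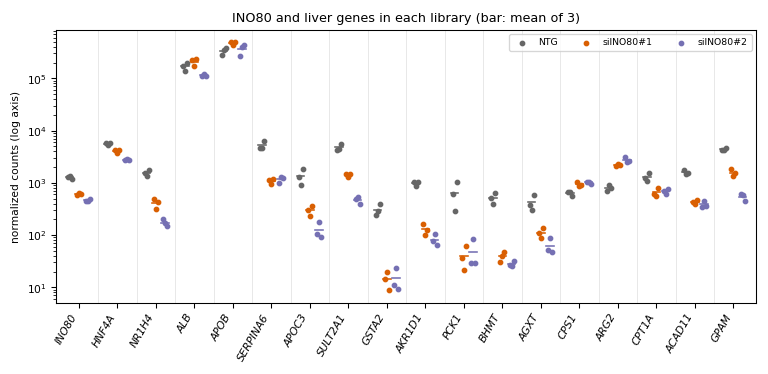
Normalized counts on a log axis for INO80 and 17 liver genes in each of 9 libraries; points are libraries, short bars the mean of 3. The grey NTG points of PCK1, BHMT and GSTA2 lie well above the orange siINO80#1 points, those of ALB and APOB overlap or nearly touch them, and CPS1 and ARG2 are higher with siINO80#1.

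Promoter sequence of liver genes that differed in their response can be set side by side. The windows below run from 250 bases before to 50 bases after the annotated start and were taken from RefSeq (GRCh38.p14); of the 14034 genes tested 10251 had one. Capitals mark the motif searched for the hepatocyte factor HNF1, GTTAATNAT on either strand. The GCKR window is chr2:27496589-27496888 on the plus strand and belongs to a gene that fell; the ALB window is chr4:73404037-73404336 on the plus strand and belongs to one that was not called.
GCKR: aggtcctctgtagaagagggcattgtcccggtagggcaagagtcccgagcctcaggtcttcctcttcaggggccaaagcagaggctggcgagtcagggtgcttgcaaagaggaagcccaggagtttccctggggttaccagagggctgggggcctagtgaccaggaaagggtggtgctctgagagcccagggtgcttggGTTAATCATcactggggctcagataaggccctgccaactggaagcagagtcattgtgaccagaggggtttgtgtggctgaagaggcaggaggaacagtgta
ALB: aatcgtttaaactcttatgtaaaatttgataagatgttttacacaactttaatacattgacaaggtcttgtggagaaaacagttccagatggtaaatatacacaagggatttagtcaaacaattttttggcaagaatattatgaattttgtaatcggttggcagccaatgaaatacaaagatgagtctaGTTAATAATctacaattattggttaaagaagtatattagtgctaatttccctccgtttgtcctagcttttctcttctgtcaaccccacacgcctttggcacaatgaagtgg
Each holds 1 match. This HNF1 motif stood in 0.429% of the windows of tested genes (44 of 10251), in 0.808% of those of genes called lower (18 of 2228) and in 0.181% of those called higher (4 of 2209), beside 0.751% of all 27305 windows. The counts are small, and they are a description with no test. Matches by list were few: ALB, AFP and SERPINA4 among the carrier proteins, FGA, PLG and F13B among the coagulation genes, and C4BPA, LIPC, UGT1A3, PCBD1, NPC1L1 and GCKR elsewhere in the liver lists.

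Signalling genes were called higher more often than lower. The 11 signalling lists hold 305 genes, of which 253 were tested. Of these, 108 (42.7%) rose and 26 (10.3%) fell, beside 20.7% and 20.8% of all genes. Their median log2 fold change was 0.29. Since these lists too were drawn up with earlier results known, their shares and counts are no independent support. Of 22 tested ERK outputs and feedback genes 16 rose and 0 fell by limma (median 0.82), with 0 lower at an unadjusted p under 0.05 and 0 by edgeR or DESeq2. Of 32 immediate early genes 15 rose and 0 fell by limma (median 0.44), with 1 lower at an unadjusted p under 0.05 and 0 by edgeR or DESeq2. Without siINO80#2 C 17 rose and 1 fell. EGR1, the zinc finger factor induced within minutes of a growth signal, rose from 611, 416 and 566 normalized counts with NTG to 1528, 1493 and 1796 with siINO80#1 (log2 fold change 1.61 ± 0.23, adjusted p = 0.00027). FOSL1 and FOSL2, AP-1 factors that last longer than FOS, rose, the former from 386, 412 and 329 normalized counts with NTG to 863, 911 and 951 with siINO80#1 (log2 fold change 1.28 ± 0.19, adjusted p = 0.00034). The log2 fold change of FOSL2 was 1.03. EGR3, a related factor added after its values were seen, rose from 5.58, 8.21 and 8.64 normalized counts with NTG to 87.0, 61.5 and 85.7 with siINO80#1 (log2 fold change 3.22 ± 0.26, adjusted p = 8.6e-06). FOS itself was low and variable, at 68.0, 20.5 and 36.5 normalized counts with NTG and 46.5, 43.6 and 67.3 with siINO80#1, and was not called (log2 fold change 0.46 ± 0.38, adjusted p = 0.36).

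Feedback inhibitors of ERK signalling rose along with its outputs. DUSP6, the phosphatase that inactivates ERK, stood at 1984, 1349 and 1703 normalized counts with NTG and 3414, 2155 and 3271 with siINO80#1 (log2 fold change 0.80 ± 0.20, adjusted p = 0.0084). SPRY4, an inhibitor of receptor signalling, rose from 1728, 1603 and 1527 normalized counts with NTG to 4448, 3125 and 4449 with siINO80#1 (log2 fold change 1.29 ± 0.21, adjusted p = 0.00075). In both the lowest siINO80#1 library was above the highest NTG library. IL11, a cytokine of the interleukin 6 family, rose from 118, 133 and 128 normalized counts with NTG to 661, 634 and 642 with siINO80#1 (log2 fold change 2.34 ± 0.15, adjusted p = 2.4e-06). VGF rose from 46.8, 73.9 and 30.7 normalized counts with NTG to 263, 478 and 391 with siINO80#1 (log2 fold change 2.92 ± 0.28, adjusted p = 2.4e-05). With siINO80#2 both were higher again. VGF stood at 765, 808 and 788 normalized counts (log2 difference between the siRNAs 1.10 ± 0.28, adjusted p = 0.019). IL11 stood at 1455, 914 and 933 normalized counts (log2 difference between the siRNAs 0.74 ± 0.15, adjusted p = 0.0077).

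The promoters of EGR1, VGF and IL11 are shown because these genes rose and their windows hold elements of factors that growth signals act on. They are RefSeq windows of GRCh38.p14 at chr5:138465229-138465528 on the plus strand, chr7:101165520-101165819 on the minus strand and chr19:55370414-55370713 on the minus strand. Capitals mark the serum response element core in EGR1, the cyclic AMP response element TGACGTCA in VGF and the AP-1 element TGANTCA in IL11, each searched on both strands.
EGR1: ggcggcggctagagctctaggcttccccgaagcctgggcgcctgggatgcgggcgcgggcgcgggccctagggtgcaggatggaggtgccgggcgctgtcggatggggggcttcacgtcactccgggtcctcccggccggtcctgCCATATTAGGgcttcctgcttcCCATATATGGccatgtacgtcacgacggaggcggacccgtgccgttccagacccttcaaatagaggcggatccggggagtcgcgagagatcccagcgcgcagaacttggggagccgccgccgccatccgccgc
VGF: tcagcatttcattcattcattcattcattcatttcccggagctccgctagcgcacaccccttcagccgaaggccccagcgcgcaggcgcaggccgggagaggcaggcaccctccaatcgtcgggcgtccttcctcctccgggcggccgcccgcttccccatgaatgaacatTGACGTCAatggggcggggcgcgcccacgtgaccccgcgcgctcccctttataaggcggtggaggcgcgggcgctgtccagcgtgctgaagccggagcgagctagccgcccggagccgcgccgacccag
IL11: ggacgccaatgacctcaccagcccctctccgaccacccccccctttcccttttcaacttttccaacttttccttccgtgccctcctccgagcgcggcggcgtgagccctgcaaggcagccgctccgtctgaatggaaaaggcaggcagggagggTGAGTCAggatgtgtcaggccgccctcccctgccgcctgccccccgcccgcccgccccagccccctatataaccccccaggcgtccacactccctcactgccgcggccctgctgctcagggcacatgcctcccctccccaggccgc
EGR1 held 2 matches and the others 1 each, which the choice of windows fixed in advance. Of 17 ERK outputs and feedback genes with a window, 3 held the AP-1 element, 3 the cyclic AMP element and 0 the serum response core. Of 24 immediate early genes with a window, 1, 3 and 2 held them. Over all windows such matches were about as frequent in genes that rose and in genes that fell: the AP-1 element stood in 4.66% of windows of genes called higher, 4.58% of those called lower and 4.64% of all tested genes, the cyclic AMP element in 3.35%, 3.05% and 3.19%, and the serum response core in 1.18%, 1.03% and 1%. Of all 27305 windows 7.76%, 1.98% and 1.29% held them. An EGR element, GCGTGGGCG, stood in 1.22% of genes called higher and 1.21% of those called lower, beside 1.28% of those tested and 0.784% of all windows.

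Receptors and ligands upstream of ERK rose in part. Of 12 EGF family genes 4 rose and 1 fell (median 0.06, or -0.02 when libraries were scaled to equal totals). EGFR, the receptor of EGF, rose from 1386, 1616 and 1492 normalized counts with NTG to 2456, 2846 and 3189 with siINO80#1 (log2 fold change 0.91 ± 0.14, adjusted p = 0.00056). Its ligand AREG rose from 371, 294 and 309 normalized counts with NTG to 686, 515 and 697 with siINO80#1 (log2 fold change 0.95 ± 0.21, adjusted p = 0.0041). HBEGF, another ligand, rose by 0.80 on the log2 scale, while the ligand TGFA fell (log2 fold change -0.30 ± 0.08, adjusted p = 0.0099). Among 22 other receptor tyrosine kinases and ligands 11 rose and 6 fell (median 0.39), with 2 lower without NTG A or siINO80#1 B. MET, the hepatocyte growth factor receptor, rose from 2959, 3209 and 2629.6 normalized counts with NTG to 4643, 4563 and 4707 with siINO80#1 (log2 fold change 0.67 ± 0.09, adjusted p = 0.00015). PDGFC, a platelet-derived growth factor, rose from 113, 109.8 and 118 normalized counts with NTG to 372, 401 and 368 with siINO80#1 (log2 fold change 1.73 ± 0.10, adjusted p = 1.1e-06). For NGFR the levels were 48.0, 70.8 and 32.6 normalized counts with NTG and 304, 413 and 317 with siINO80#1 (log2 fold change 2.80 ± 0.24, adjusted p = 1e-05). KLB, the liver co-receptor of FGF19 and FGF21, fell (log2 fold change -0.69 ± 0.10, adjusted p = 0.0003), and FGFR4, its partner receptor, was not called (log2 fold change -0.17 ± 0.10, adjusted p = 0.21).

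Other growth pathways held more calls higher than lower. Of 23 insulin and IGF genes 9 rose and 1 fell (median 0.12, or 0.20 to 0.25 without NTG A, NTG C, siINO80#1 A or siINO80#1 B). When libraries were scaled to equal totals 8 rose and 5 fell, and without siINO80#2 C 10 rose and 4 fell. IGF2, the fetal growth factor that liver tumours often express, was among the most abundant mRNAs and stood at 26335, 11468 and 18253 normalized counts with NTG and 48114, 32999 and 56114 with siINO80#1 (log2 fold change 1.34 ± 0.34, adjusted p = 0.0094). Its NTG libraries spread widely, yet none reached the siINO80#1 range. IGFBP4, a binding protein that holds IGF back, rose as well, from 946, 1117 and 925 normalized counts with NTG to 2505, 3184 and 2824 with siINO80#1 (log2 fold change 1.51 ± 0.10, adjusted p = 2.6e-06). Of 26 Wnt and beta-catenin targets 15 rose and 2 fell (median 0.38). LGR5, a Wnt receptor partner, rose from 2606, 2665 and 2289 normalized counts with NTG to 3766, 3662 and 3834 with siINO80#1 (log2 fold change 0.58 ± 0.09, adjusted p = 0.00044). AXIN2, the standard readout of the pathway, was higher at 2685, 2985 and 2503 normalized counts with NTG and 3161, 3843 and 3363 with siINO80#1 (log2 fold change 0.34 ± 0.10, adjusted p = 0.021). The AXIN2 call was lost without NTG A, NTG C or siINO80#1 B (limma adjusted p = 0.06 to 0.091). SLC1A2, a glutamate transporter of pericentral hepatocytes, fell (log2 fold change -1.69 ± 0.21, adjusted p = 0.0001). Among 20 Notch and Hedgehog genes 9 rose and 0 fell by limma (median 0.45), with 1 lower at an unadjusted p under 0.05 and 0 by edgeR or DESeq2. The Notch ligand JAG1 rose from 6709, 6346 and 6172 normalized counts with NTG to 11516, 10828 and 11863 with siINO80#1 (log2 fold change 0.83 ± 0.09, adjusted p = 5.8e-05). The Notch targets HES1 (log2 fold change 0.58 ± 0.14, adjusted p = 0.0067) and HEY1 (log2 fold change 1.59 ± 0.25, adjusted p = 0.00058) rose.

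TGF-beta, YAP and adhesion genes also leaned higher. Of 31 TGF-beta and BMP genes 12 rose and 3 fell (median 0.23). TGFB1, the ligand, rose from 489, 489 and 538 normalized counts with NTG to 1716, 2052 and 2626 with siINO80#1 (log2 fold change 2.05 ± 0.21, adjusted p = 3.4e-05), and the groups were far apart. The feedback gene SMAD7 (log2 fold change -0.07 ± 0.25, adjusted p = 0.85) and the BMP target ID1 (log2 fold change -0.13 ± 0.15, adjusted p = 0.52) were not called, and ID2 fell (log2 fold change -0.56 ± 0.11, adjusted p = 0.0018). Of 23 YAP and TEAD targets 7 rose and 1 fell (median 0.19): CTGF rose from 3833, 3284 and 3427 normalized counts with NTG to 6424, 5550.2 and 6666 with siINO80#1 (log2 fold change 0.82 ± 0.09, adjusted p = 7.6e-05), and CYR61 was not called (log2 fold change -0.29 ± 0.16, adjusted p = 0.19), although with libraries paired by letter it was lower (replicate block, adjusted p = 0.049). In the list of epithelial, adhesion and mesenchymal genes, which is counted with the growth lists in the totals, 18 of 35 rose and 3 fell (median 0.41). ITGB4, an integrin of hemidesmosomes, rose from 74.7, 77.0 and 69.1 normalized counts with NTG to 209, 194 and 264 with siINO80#1 (log2 fold change 1.57 ± 0.15, adjusted p = 1.9e-05). The matrix protease MMP2 rose from 51.3, 51.3 and 46.1 normalized counts with NTG to 120.4, 161 and 148 with siINO80#1 (log2 fold change 1.5 ± 0.13, adjusted p = 1.4e-05). CDH1, the E-cadherin of epithelial junctions, fell from 911, 893 and 1052 normalized counts with NTG to 392, 334 and 433 with siINO80#1 (log2 fold change -1.30 ± 0.13, adjusted p = 2.8e-05). The tight junction genes CGN (log2 fold change -1.28 ± 0.13, adjusted p = 3.7e-05) and CLDN2 (log2 fold change -0.69 ± 0.17, adjusted p = 0.009) fell with it.

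Inflammatory and interferon lists did not lean one way. Of 23 NF-kB and cytokine genes 7 rose and 8 fell (median 0.09), and 9 were called in all without NTG C, in place of 15. The lower calls were 3 without NTG C or siINO80#1 B and 4 without NTG A or siINO80#1 A. NFKBIA, the inhibitor of NF-kB and its target, fell from 2279, 2524 and 2744 normalized counts with NTG to 1405, 1685 and 1639.7 with siINO80#1 (log2 fold change -0.67 ± 0.11, adjusted p = 0.00087), whereas IL6R, the interleukin 6 receptor, rose (log2 fold change 1.10 ± 0.12, adjusted p = 5.6e-05). CXCL8 was not called (log2 fold change -0.12 ± 0.35, adjusted p = 0.81). Of 25 interferon-stimulated genes and RNA sensors 7 rose and 4 fell (median 0.13, or 0.08 without NTG B). IFIT1, a standard mark of an interferon response, was not called (log2 fold change -0.24 ± 0.19, adjusted p = 0.36), IFIT3 fell (log2 fold change -1.43 ± 0.17, adjusted p = 0.0001) and IRF9 rose (log2 fold change 0.93 ± 0.11, adjusted p = 0.0001).

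**Figure D3:**
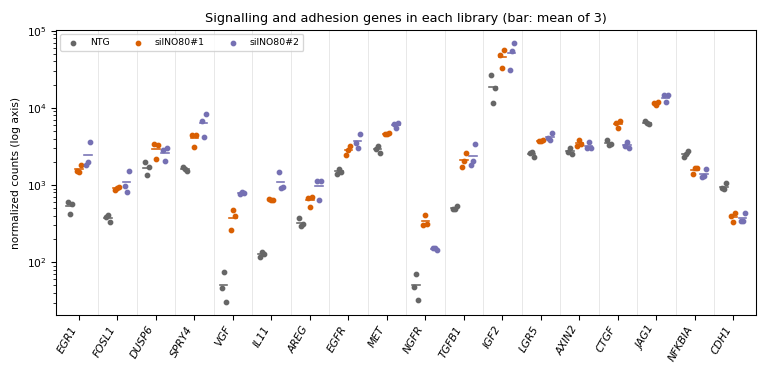
Normalized counts on a log axis for 18 signalling and adhesion genes in each of 9 libraries; points are libraries, short bars the mean of 3. EGR1, VGF, IL11, TGFB1 and NGFR are higher in all siINO80#1 libraries than in the NTG libraries, and NFKBIA and CDH1 lower.

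Growth genes were called lower more often than all genes and higher less often, and their lists differed. The 11 growth lists hold 504 genes, of which 492 were tested. Of these, 144 (29.3%) fell and 67 (13.6%) rose, beside 20.8% and 20.7% of all genes. Their median log2 fold change was -0.20. DNA replication genes fell in 23 of 49 cases and rose in 4 (median -0.41), and mitosis genes fell in 20 of 53 and rose in 5 (median -0.28). Without siINO80#2 C 30 replication genes fell and 4 rose, and 25 mitosis genes fell and 5 rose. PCNA, the sliding clamp of the replication fork, stood at 5937, 6028 and 5295 normalized counts with NTG and 4366, 4082 and 3531 with siINO80#1 (log2 fold change -0.53 ± 0.18, adjusted p = 0.035). The helicase subunit MCM2 stood at 2090.1, 1969.9 and 1695 normalized counts with NTG and 1492, 1413 and 1338 with siINO80#1 (log2 fold change -0.44 ± 0.15, adjusted p = 0.039). The PCNA call was lost without NTG A, NTG B, NTG C, siINO80#1 B or siINO80#1 C (limma adjusted p = 0.055 to 0.12). The MCM2 call was lost without NTG A, NTG B, siINO80#1 A, siINO80#1 B or siINO80#1 C (limma adjusted p = 0.061 to 0.13). GINS1 and HMMR were called lower with each library left out in turn. GINS1, another helicase component, fell from 1508, 1519 and 1332 normalized counts with NTG to 798, 714 and 665 with siINO80#1 (log2 fold change -1.0 ± 0.11, adjusted p = 6.7e-05). HMMR, a spindle protein, fell from 1525, 1293 and 1257 normalized counts with NTG to 782, 587 and 631 with siINO80#1 (log2 fold change -1.03 ± 0.12, adjusted p = 9e-05). CCNB1, the mitotic cyclin, was lower (log2 fold change -0.58 ± 0.16, adjusted p = 0.013). The CCNB1 call was lost without NTG A or siINO80#1 C (limma adjusted p = 0.051 to 0.053). The proliferation marker MKI67 was not called (log2 fold change -0.37 ± 0.14, adjusted p = 0.053). The mitosis count depended on the library left out, with 14 calls without NTG A, 15 without siINO80#1 B and 14 without siINO80#1 C, in place of 25. It was 19 without NTG B, 24 without NTG C and 27 without siINO80#1 A. Its median ranged from -0.35 without siINO80#1 A to -0.18 without NTG A. Over all genes, leaving out 1 of the 6 libraries gave 4711 to 5060 calls, in place of 5833. The replication count was 20 without NTG A, 19 without siINO80#1 B and 20 without siINO80#1 C, in place of 27.

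Some cell cycle genes rose against their lists. DNMT1, the maintenance DNA methyltransferase, rose from 1099, 1119 and 973 normalized counts with NTG to 2278, 2199 and 2123 with siINO80#1 (log2 fold change 1.05 ± 0.08, adjusted p = 4.9e-06). PRC1, a cross-linker of the central spindle, rose from 893, 812 and 694 normalized counts with NTG to 1652, 1504 and 1557 with siINO80#1 (log2 fold change 0.98 ± 0.11, adjusted p = 5.7e-05). The spindle motor KIF11 rose from 803, 673 and 585 normalized counts with NTG to 1189, 1000.4 and 929.6 with siINO80#1 (log2 fold change 0.60 ± 0.14, adjusted p = 0.0064). The groups did not overlap for any of the 3. Of 34 G1/S regulators 7 (20.6%) fell and 6 (17.6%) rose (median -0.06), near the 20.8% and 20.7% of all genes. They held 8 calls in all without siINO80#1 B, and 11 fell and 7 rose without siINO80#2 C. E2F1, the factor that drives S phase genes, fell from 952, 918 and 992 normalized counts with NTG to 517, 528 and 508 with siINO80#1 (log2 fold change -0.88 ± 0.13, adjusted p = 0.00045). The CDK inhibitor CDKN2B rose from 568, 868 and 652 normalized counts with NTG to 1191, 1388 and 1496 with siINO80#1 (log2 fold change 0.98 ± 0.17, adjusted p = 0.001). CCND1 was higher (log2 fold change 0.27 ± 0.09, adjusted p = 0.033). The CCND1 call was lost without NTG A, NTG C, siINO80#1 A, siINO80#1 B or siINO80#1 C (limma adjusted p = 0.059 to 0.13). Of 31 p53 targets 10 rose and 9 fell (median -0.14), or 6 and 12 with libraries scaled to equal totals, and without NTG C 6 rose and 8 fell. The median was -0.08 without siINO80#1 B. CDKN1A, the p21 inhibitor induced by p53, fell from 4626, 5351 and 4951 normalized counts with NTG to 3815, 4077 and 4234 with siINO80#1 (log2 fold change -0.30 ± 0.07, adjusted p = 0.008), while MDM2 was not called (log2 fold change -0.10 ± 0.09, adjusted p = 0.43).

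The integrated stress response, a programme that acts through ATF4 and that amino acid shortage can set off, was lower. Of its 31 genes 21 fell and 2 rose (median -0.62). ATF4 fell from 7257, 7054 and 7738 normalized counts with NTG to 5134, 4564 and 4899 with siINO80#1 (log2 fold change -0.60 ± 0.07, adjusted p = 0.00011). ASNS, asparagine synthetase, fell from 1739.9, 2222 and 1829.8 normalized counts with NTG to 749.9, 784 and 621 with siINO80#1 (log2 fold change -1.42 ± 0.14, adjusted p = 3.2e-05). PHGDH, the entry to serine synthesis, fell from 2467, 2755 and 2883 normalized counts with NTG to 857, 797 and 715 with siINO80#1 (log2 fold change -1.77 ± 0.18, adjusted p = 3.2e-05). The mitochondrial folate enzyme ALDH1L2 fell (log2 fold change -1.93 ± 0.17, adjusted p = 1.1e-05). The groups did not overlap for any of these. GDF15, a stress cytokine listed here and among the p53 targets, rose instead, from 5129, 4773 and 5067 normalized counts with NTG to 9195, 8949 and 11308 with siINO80#1 (log2 fold change 0.97 ± 0.11, adjusted p = 7e-05). The unfolded protein response was different: 4 of 26 genes rose and 3 fell, with the chaperone HSPA5 (log2 fold change 0.07 ± 0.11, adjusted p = 0.65) and the factor XBP1 (log2 fold change 0.18 ± 0.10, adjusted p = 0.17) not called, HYOU1 higher (log2 fold change 0.73 ± 0.08, adjusted p = 4.3e-05) and HERPUD1 lower (log2 fold change -0.88 ± 0.10, adjusted p = 9.1e-05). Its shares were 15.4% higher and 11.5% lower, beside 20.7% and 20.8% of all genes. Its median of 0.06 was -0.02 with equal totals and -0.03 after quantile normalization. Its count was 7 in all, 11 with a replicate block by library letter, and 13 without siINO80#2 C.

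The share of ribosomal protein genes called lower depended on whether siINO80#2 C was in the fit. Nuclear genes of oxidative phosphorylation were called lower more often than all genes. Of 79 cytosolic ribosomal protein genes 15 (19%) fell, beside 20.8% of all genes, and 0 rose by limma (median -0.21), with 1 higher at an unadjusted p under 0.05, 0 higher by edgeR and 1 by DESeq2. Of the 79, 76 had a negative log2 fold change. Without siINO80#2 C 53 of 79 were lower and 1 higher, beside 3550 lower and 3357 higher of the 14034 genes tested. Without siINO80#1 C 7 were called. RPS6 was lower (log2 fold change -0.26 ± 0.07, adjusted p = 0.012). The RPS6 call was lost without siINO80#1 C (limma adjusted p = 0.056). RPL3 was not called (log2 fold change -0.34 ± 0.15, adjusted p = 0.088), but with libraries paired by letter it was lower (replicate block, adjusted p = 0.039). Reads of these genes can be shared with processed pseudogenes. Nuclear genes of oxidative phosphorylation fell in 35 of 77 cases (45.5%) and rose in 1 (median -0.36), and 55 fell and 2 rose without siINO80#2 C. NDUFS1, a complex I subunit, fell from 5824, 5858 and 5586 normalized counts with NTG to 4493, 4076 and 3933 with siINO80#1 (log2 fold change -0.47 ± 0.08, adjusted p = 0.0011). ATP5G1, an ATP synthase subunit, fell from 993, 926 and 1071 normalized counts with NTG to 507, 524 and 515 with siINO80#1 (log2 fold change -0.95 ± 0.11, adjusted p = 7.6e-05). Of the 13 mitochondrially encoded mRNAs 0 were called by limma, edgeR or DESeq2, and 0 had an unadjusted p under 0.05, while 1 was called higher without siINO80#2 C. With a replicate block in the 6 libraries alone, 4 were higher and 1 lower. Their summed level was 1493430 to 1566030 normalized counts with NTG and 1594260 to 1710540 with siINO80#1. It was 1563460 to 3920480 with siINO80#2, whose libraries share in the estimate of the spread. MT-CO1, the most abundant of them named here, had a log2 fold change 0.14 ± 0.28, adjusted p = 0.72. Among 42 ribosome biogenesis genes 9 (21.4%) rose and 2 (4.76%) fell, beside 20.7% and 20.8% of all genes. The share higher was thus near that of all genes. The list median was 0.04, or -0.04 with equal totals, where 4 rose and 2 fell. Without NTG C 4 rose and 3 fell (median -0.01). POLR1A, the catalytic subunit of RNA polymerase I, rose from 2066, 1968 and 1595 normalized counts with NTG to 3929, 3817 and 3706 with siINO80#1 (log2 fold change 1.03 ± 0.10, adjusted p = 2.9e-05).

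Of 38 glycolysis and hypoxia genes 9 (23.7%) rose and 7 (18.4%) fell (median -0.10). These shares were near the 20.7% and 20.8% of all genes. The median was 0.01 and 2 were lower without NTG A, and it was -0.26 with 7 higher and 10 lower without NTG B. The count of 16 fell to 9 without NTG C, 10 without siINO80#1 A and 8 without siINO80#1 B, with 2, 3 and 2 of them lower. HIF1A, the oxygen-regulated factor, rose from 3769.8, 3932 and 3698 normalized counts with NTG to 7708, 7528 and 8081 with siINO80#1 (log2 fold change 1.03 ± 0.13, adjusted p = 0.00011), LDHA was not called (log2 fold change -0.09 ± 0.16, adjusted p = 0.68), and BNIP3, a mitophagy receptor, fell (log2 fold change -0.79 ± 0.20, adjusted p = 0.0087). VEGFA was lower (log2 fold change -0.41 ± 0.15, adjusted p = 0.047). The VEGFA call was lost without NTG A, NTG C, siINO80#1 A or siINO80#1 B (limma adjusted p = 0.1 to 0.17). NTG library B was the lowest of its group in LDHA, VEGFA and BNIP3, as it was in PCK1, G6PC and IGF2.

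**Figure D4:**
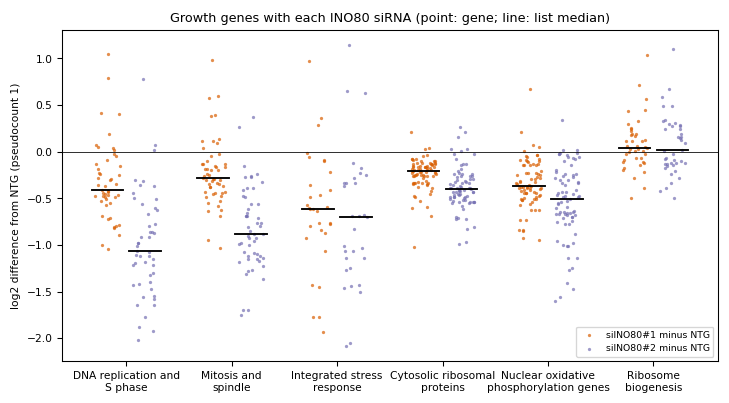
Log2 difference from NTG for every tested member of 6 growth lists, with siINO80#1 (orange) and siINO80#2 (violet); points are genes and black lines the list medians. Replication and mitosis genes lie lower with siINO80#2 than with siINO80#1, while the integrated stress response medians are close; both sets of values use the same 3 NTG libraries.

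The direct comparison of the siRNAs, which uses no NTG library, gave the genes on which the responses differed. Over all genes 22.1% were called, 12.6% lower and 9.48% higher with siINO80#2. Replication and mitosis genes were lower with siINO80#2 than with siINO80#1 in 42 of 49 and 44 of 53 cases, and in 40 and 43 without siINO80#2 C. The 42 and 44 include DNMT1, PRC1 and KIF11, which rose with siINO80#1 against NTG. No replication or mitosis gene was higher with siINO80#2 by limma, by edgeR or by DESeq2, and 0 were higher at an unadjusted p under 0.05. MCM2 stood at 555, 603 and 382 normalized counts (log2 difference between the siRNAs -1.49 ± 0.15, adjusted p = 0.00019), and PCNA at 2773, 2795 and 1633 normalized counts (log2 difference between the siRNAs -0.77 ± 0.18, adjusted p = 0.012). Liver genes were lower with siINO80#2 in 123 of 407 cases and higher in 21, with siINO80#2 C included. Without it, the lower count went from 12 to 13 for hepatocyte transcription factors. For cholesterol genes it went from 12 to 9, the largest drop of a liver list. ALB, not called with siINO80#1, was lower with siINO80#2, at 109073, 121826 and 109582 normalized counts (log2 difference between the siRNAs -0.86 ± 0.17, adjusted p = 0.0059), as were CEBPA (log2 difference between the siRNAs -1.64 ± 0.30, adjusted p = 0.0038) and HNF4A (log2 difference between the siRNAs -0.58 ± 0.07, adjusted p = 0.00064). The integrated stress response and ribosome biogenesis lists held few such calls, 2 of 31 and 2 of 42, or 6 and 3 without siINO80#2 C.

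A different group of genes moved with siINO80#1 and less, or not, with siINO80#2. Of 226 genes named by the rule given with the methods, 180 were called in siINO80#1 against NTG; for 106 of these the siRNAs were not called different, for 46 the difference ran in the siINO80#1 direction, and for 28 it ran against it. Of those 28, 7 were lower and 21 higher with siINO80#1. The first comparison and this one share the 3 siINO80#1 libraries, so the split is a description. SC5D, a desaturase late in cholesterol synthesis, fell from 3735, 3857 and 4238 normalized counts with NTG to 1285, 1031 and 1119 with siINO80#1 (log2 fold change -1.79 ± 0.10, adjusted p = 8.5e-07), yet stood at 3307, 3279 and 3805 normalized counts (log2 difference between the siRNAs 1.60 ± 0.10, adjusted p = 8.4e-06). RPS25, a protein of the small ribosomal subunit, showed the same, from 7064, 6900.3 and 6680.0 normalized counts with NTG to 3611, 3388 and 3185 with siINO80#1 (log2 fold change -1.02 ± 0.07, adjusted p = 2.8e-06), against 6696, 6497 and 7103 normalized counts (log2 difference between the siRNAs 1.0 ± 0.07, adjusted p = 2.5e-05). AKR1B10, an aldo-keto reductase counted among the NRF2 targets, went from 4669.8, 5267 and 6282 normalized counts with NTG to 2358, 2190.2 and 2454 with siINO80#1 (log2 fold change -1.20 ± 0.11, adjusted p = 1.7e-05) and stood at 5365, 4629 and 4490.3 normalized counts (log2 difference between the siRNAs 1.05 ± 0.11, adjusted p = 0.00023). In all 3 the siINO80#1 libraries lay below the other 6 libraries. Among genes that rose, CTGF stood at 3202, 3585 and 3035 normalized counts with siINO80#2 (log2 difference between the siRNAs -0.92 ± 0.09, adjusted p = 0.00021) and NGFR at 153, 152 and 143 normalized counts (log2 difference between the siRNAs -1.19 ± 0.24, adjusted p = 0.0059). The cause of these differences was not tested.

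**Figure D5:**
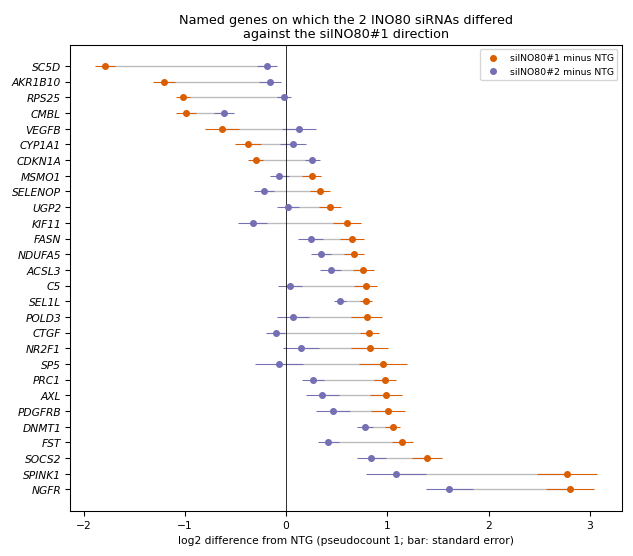
Log2 difference from NTG with its standard error for the 28 named genes on which siINO80#2 differed from siINO80#1 against the siINO80#1 direction; orange, siINO80#1; violet, siINO80#2. SC5D, AKR1B10 and RPS25 lie far below zero with siINO80#1 and near zero with siINO80#2, and CDKN1A lies on opposite sides.

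Elements of factors tied to the complex or to mitochondrial genes were about as common among genes that rose and fell. The YY1 element AAGATGGCG stood in 3.88% of windows of tested genes, 3.53% of those called higher and 4.17% of those called lower, beside 1.85% of all windows, and the NRF1 element GCGCATGCG in 3.63%, 3.53%, 3.86% and 2.1%. Both were searched on both strands. A match describes these letters in these windows and says nothing of binding.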

How the data were processed

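RNA-seq of HepG2 cells was analysed from 1 deposited table of normalized counts (signal values per gene symbol). That these are counts divided by a size factor for each library was inferred from the values. The submitters' processing notes name kallisto, DESeq2 and GRCh38 with no version or role. Annotation and use of strand are not given in the sources used here. Every deposited value in the 9 siRNA libraries was a whole multiple of the value of 1 read (100% within 0.01 read), although rounded estimates would look the same, so 17093574 to 23229356 reads per library were recovered in the 6 libraries compared. Counting intervals and the limit of 3 reads cover counting error only. The drug-treatment table was not used here.

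Of 34825 rows, 14034 genes with a mean of at least 10 were tested with limma 3.58.1 (R 4.3.3) on log2(value + 1), a trend in eBayes, the 9 libraries in 1 fit and a Benjamini-Hochberg adjusted p under 0.05. On the recovered reads edgeR 4.0.16 called 5843 genes and DESeq2 1.42.0 called 5864, beside 5833 by limma. The steps were tested on simulated data. Replicates differed by more than sampling noise (chi-square per degree of freedom of 9.45 to 13.2 within NTG and siINO80#1), and none was a copy.

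Library letters paired NTG and siINO80#1 by the data: same-letter correlations of deviations from the group means were 0.247, 0.263 and 0.135, against -0.219 to -0.0417 for other letters. The letters share no stated culture or day, so the pairing of NTG with siINO80#1 comes from the values. For siINO80#2 the letters paired less clearly. Its same-letter correlations were 0.0946, -0.0766 and 0.0225 with NTG, against -0.113 to 0.0777 for other letters. With siINO80#1 they were 0.1335, 0.00364 and 0.102, against -0.246 to 0.104. The replicate block in the 9 libraries used the letters of all groups.

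The comparison, the gene lists and the tests were chosen with earlier results of these data known. The genes named are, per list, its anchors and, among other called members with a mean of at least 50 and no overlap between groups, the 2 largest increases and 2 largest decreases, with all INO80 subunits and the 5 largest changes in each direction; some are left out, and LYZ, OTC and EGR3 were added after their values were seen. Promoters came from RefSeq windows matched by symbol. Alternatives were pseudocounts of 0.1 and 5, no filter, a mean of at least 50, equal totals, quantile normalization, a replicate block, the 6 libraries alone, eBayes without a trend, edgeR, DESeq2 and each library left out; a replicate block in the 6 libraries and the fit without siINO80#2 C were chosen after seeing the data.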

Additional observations from a re-analysis of the deposited data

Results flagged for a closer look

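CDKN1A, which encodes the cell cycle inhibitor p21, was the named gene on which the INO80 siRNAs were called in opposite directions against NTG. It stood at 4626, 5351 and 4951 normalized counts with NTG, at 3815, 4077 and 4234 with siINO80#1 and at 6051, 5711 and 6055 with siINO80#2. The difference between the siRNAs was itself called (log2 difference, siINO80#2 minus siINO80#1, of 0.56 ± 0.07, limma adjusted p = 0.00076). No library of the 3 groups overlapped with another group, and the cause was not tested.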

How the results depend on the processing

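The number of genes called lay between 4711 and 8216 over all alternatives, beside 5833, and the log2 fold change of INO80 between -1.14 and -1.01. Of 4289 values of named genes under alternatives, 4074 kept their direction and side of the threshold, 159 lost the call, 56 gained one and 0 reversed it; 152 of the 180 called named genes were called with each of the 6 libraries left out. With each of those libraries or siINO80#2 C left out, list counts ranged from 3 to 8 for INO80 subunits, 8 to 18 for cholesterol genes, 9 to 15 for NF-kB and cytokine outputs, 8 to 18 for G1/S regulators, 14 to 30 for mitosis, 6 to 13 for the unfolded protein response, 8 to 20 for glycolysis and hypoxia, 7 to 13 for ribosome biogenesis, 7 to 54 for ribosomal proteins and 29 to 57 for oxidative phosphorylation. With equal totals ribosome biogenesis held 6 calls, and after quantile normalization ribosomal proteins held 29. With the 6 libraries alone, 13 unfolded protein response, 51 ribosomal protein and 56 oxidative phosphorylation genes were called, and without siINO80#2 C 13, 54 and 57.

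With a replicate block, pairing libraries by letter, 6327 genes were called against NTG and 3590 between the INO80 siRNAs, and 11 unfolded protein response genes were called. The block gained CYR61, RPL3 and PECAM1 and lost MSMO1 and CD14, and changed no other call of a named gene. With the block in the 6 libraries alone 8216 genes were called, among them 10 INO80 subunits, 20 carrier protein genes, 16 apolipoprotein genes, 19 coagulation, 23 complement, 25 cholesterol, 14 YAP, 21 G1/S, 45 mitosis, 18 unfolded protein response, 29 glycolysis and hypoxia, 21 ribosome biogenesis, 65 ribosomal protein and 61 oxidative phosphorylation genes. Causes of these shifts were not tested. Depth of 17093574 to 23229356 reads and 3 libraries a group limit what can be called among genes near the filter of 10 normalized counts.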
